A study of Mus musculus with 2 samples.

Results

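Immature natural killer (NK) cells, taken here as barcodes with a Cd27 transcript and no Klrg1 transcript, made up 207 of the 3404 barcodes in 2 single-cell libraries of NK cells sorted from mouse brain. A barcode was gated as NK if it held at least 300 genes, at most 10% mitochondrial UMIs (unique molecular identifiers, the counted transcript molecules), a UMI of Ncr1 or Klrb1c, at most 2 summed UMIs of Itga1, Cxcr6, Inpp4b, Gzmc and Tnfsf10, and none of Cd3d, Cd3e, Cd3g, C1qa, C1qb or C1qc. It counted as immature if it also held at least 1 UMI of Cd27 and 0 of Klrg1. This gave 117 of 1445 gated barcodes in wildtype and 90 of 1457 in 3XTg-AD, and the other 1328 and 1367 gated barcodes are called other NK barcodes.

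The wildtype library came from untreated C57BL/6 females and the other from untreated 3XTg-AD females, all 8 months old, with 1 library per genotype. The 3XTg-AD line is a model of Alzheimer's disease that carries mutant human amyloid precursor protein and tau transgenes, driven by a Thy1 cassette that is active in neurons, and a mutant presenilin gene. How many mice stood behind a library, whether they were pooled and which strain the 3XTg-AD mice are on is unknown from the labels. Genotype, strain and preparation therefore cannot be told apart in any difference between the libraries, no test was made, and every interval below is an exact 95% interval that covers counting error only, not variation between cells or mice.

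Mouse NK cells are known to lose CD27, a costimulatory receptor of the TNF receptor family, as they mature, and to gain KLRG1, an inhibitory lectin receptor for cadherins. Cells early on this path keep transcription factors and receptors shared with lymphoid progenitors, among them TCF-1 (from Tcf7) and the interleukin 7 receptor. Late cells carry more granzyme and perforin and gain S1PR5 and CX3CR1, which serve exit into blood and patrolling.

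Members and the genes that set them apart are shown first as sequence, because the gate rests on Cd27 and because 3 of the most reduced genes lie side by side. Each window runs from 250 bases before to 50 bases after a start site annotated by RefSeq on GRCm38.p6, the build that mm10 denotes, and is written 5′ to 3′ on the gene's strand. Capitals mark a match on either strand to CTTTGAA or CTTTGAT, letters bound by TCF and LEF factors. Cd27 lies on the minus strand of chromosome 6 and its window is chr6:125236978-125237277, with the match at position 15 from the start, on the opposite strand. Emb, which encodes the adhesion protein embigin, lies on the plus strand and its window is chr13:117220323-117220622, with the match on the opposite strand from position -156. Cdc20b on the plus strand (chr13:113035129-113035428), Gpx8 on the minus strand (chr13:113046339-113046638) and Gzma on the minus strand (chr13:113100932-113101231) are neighbours, and of these only the Cdc20b window holds a match, on its own strand from position -203.
Cd27: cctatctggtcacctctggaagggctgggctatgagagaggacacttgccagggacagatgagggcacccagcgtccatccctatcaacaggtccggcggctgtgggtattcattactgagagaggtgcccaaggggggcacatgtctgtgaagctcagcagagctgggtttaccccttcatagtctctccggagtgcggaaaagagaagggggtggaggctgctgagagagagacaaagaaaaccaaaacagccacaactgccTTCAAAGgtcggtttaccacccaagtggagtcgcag
Emb: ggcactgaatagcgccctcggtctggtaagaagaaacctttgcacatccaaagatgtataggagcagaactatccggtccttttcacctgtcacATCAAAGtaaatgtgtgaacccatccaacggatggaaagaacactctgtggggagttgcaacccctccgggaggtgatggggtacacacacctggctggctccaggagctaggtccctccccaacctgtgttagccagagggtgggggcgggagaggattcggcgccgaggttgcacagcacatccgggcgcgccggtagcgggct
Cdc20b: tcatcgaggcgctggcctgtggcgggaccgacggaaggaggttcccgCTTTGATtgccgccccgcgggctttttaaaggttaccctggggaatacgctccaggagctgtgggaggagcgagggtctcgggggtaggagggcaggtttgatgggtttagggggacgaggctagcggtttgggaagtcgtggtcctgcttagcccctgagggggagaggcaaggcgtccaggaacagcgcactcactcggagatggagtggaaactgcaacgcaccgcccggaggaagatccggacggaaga
Gpx8: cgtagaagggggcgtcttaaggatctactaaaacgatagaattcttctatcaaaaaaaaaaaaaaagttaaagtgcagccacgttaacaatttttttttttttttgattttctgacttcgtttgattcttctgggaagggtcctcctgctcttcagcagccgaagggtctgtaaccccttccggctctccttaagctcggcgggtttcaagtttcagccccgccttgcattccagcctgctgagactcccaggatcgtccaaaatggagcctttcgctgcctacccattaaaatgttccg
Gzma: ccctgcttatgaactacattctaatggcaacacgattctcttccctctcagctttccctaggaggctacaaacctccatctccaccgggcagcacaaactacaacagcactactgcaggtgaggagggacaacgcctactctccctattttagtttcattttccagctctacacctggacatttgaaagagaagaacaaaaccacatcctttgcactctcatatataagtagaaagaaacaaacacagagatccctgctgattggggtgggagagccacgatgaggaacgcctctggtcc

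A match is a description of letters, not of binding. Over all 32851 RefSeq windows of this kind, 8.65% held the TCF/LEF letters. Among the 6 marker genes of this cell type (Cd27, Ctla2a, Thy1, Emb, Tcf7 and Ccr2), 5 had a window and 2 of these genes held a match. Of the 12 genes described below as most enriched, 8 had a window and 0 held one, and of the 12 most reduced, 11 had a window and 1, Cdc20b, held one. The T-box letters AGGTGTGA (reverse complement TCACACCT), which do not overlap the first motif, were in 1.28% of all windows and in none of those of these genes.

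The immature share of gated barcodes was 8.10% (6.74 to 9.62) in wildtype and 6.18% (5.0 to 7.54) in 3XTg-AD. Detection of Cd27 grows with depth, so every gated barcode was also drawn down to 1500 UMIs, leaving aside the 135 and 89 barcodes below that depth. The shares were then 4.27% (3.25 to 5.52, 56 of 1310) and 3.80% (2.85 to 4.96, 52 of 1368), and the intervals of the libraries overlap both before and after thinning. Before thinning, Cd27 was found in 9.90% and 8.72% of all gated barcodes. In microglia-type barcodes with at least 5 C1q UMIs, where a Cd27 transcript would be free RNA or a second cell, it was found in 0 of 8 and 0 of 30, although Ncr1 was found in 50% of each. Their median depths of 3206 and 3583 UMIs were above those of the immature barcodes, and 0 of 8 and 0 of 30 allow shares of up to 36.9% and 11.6% by the exact binomial bound.

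The gate is a threshold on 1 or 2 molecules. Of the members, 94 wildtype and 78 3XTg-AD barcodes held exactly 1 Cd27 UMI, 20 and 12 held 2, and 3 and 0 held more. Just outside lay 635 and 664 gated barcodes without either transcript, and 13 and 21 that held Cd27 and a single Klrg1 UMI. Members were slightly deeper than other NK barcodes, with medians of 2988 against 2857 UMIs in wildtype and 2873.5 against 2764 in 3XTg-AD. Ribosomal protein transcripts took a median of 21.9% of their UMIs against 17.3% in wildtype, and 19.5% against 15.4% in 3XTg-AD. Mitochondrial shares were 1.76% against 1.39%, and 1.34% against 1.18%. The members together held 393028 and 284581 UMIs, and 1 barcode sequence occurred in both libraries and was gated in both.

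Of the 11 NK cell markers listed, which include Ncr1 and Klrb1c of the gate, all were found in members of both libraries. Summed they reached 26164 CPM (UMIs scaled to a class total of 1000000) in wildtype and 28076 CPM in 3XTg-AD, against 40460 and 41222 CPM in other NK barcodes. Gzma alone gave 9981 and 10145 CPM of these sums in members, against 21128 and 20761 CPM. Over the 9 measured markers outside the gate, the median log2 ratio was -0.20 and -0.22, beside -0.03 and -0.06 for all genes. The T cell list of 11 genes was split. Cd4, Cd5, Cd6, Cd8a and Cd8b1 stood at 0 UMIs in members and in other NK barcodes of both libraries. The 6 others were measured, and 3 of them, Cd28 and the T cell receptor constant genes Trac and Trdc, were at least 1.5-fold higher in members of both libraries and 0 lower, beside 2.87% higher and 5.29% lower among all 8569 genes with 20 UMIs in each library, the minimum for lists. Cd28, a costimulatory receptor of T cells, was 2.52-fold (1.48 to 4.09) and 2.59-fold (1.05 to 5.55) higher on 21 and 8 member UMIs. Summed, the T cell list stood at 547 against 443 CPM in wildtype and at 517 against 430 CPM in 3XTg-AD, and its part in the results was not tested. Cd79a, Ebf1, Igkc, Ms4a1 and Pax5 of B cells were also at 0, and Cd79b had 1 UMI in 3XTg-AD members and 0 in wildtype members.

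Genes of type 1 innate lymphoid cells, close relatives of NK cells that reside in tissues, were partly removed by the gate. Over the 9 listed, members held 331 CPM against 114 CPM in wildtype and 130 against 71.0 CPM in 3XTg-AD. This sum includes the 5 gate genes and Il7r, the interleukin 7 receptor gene. Il7r alone gave 60 of its 130 UMIs in wildtype members and 17 of 37 in 3XTg-AD members. The 3 genes of the list that were measured outside the gate had a median log2 ratio of 1.60 in wildtype but -1.27 in 3XTg-AD. Tmem176b, a membrane protein gene of that list, had 25 UMIs in 7 wildtype members and 1 UMI in 3XTg-AD members. Its ratio, members over other NK barcodes, was 3.03 (1.86 to 4.78) in wildtype and 0.275 (0.00683 to 1.60) in 3XTg-AD. Tmem176a had ratios of 2.65 (1.36 to 4.84) and 0.416 (0.0102 to 2.47), and the 3XTg-AD intervals of both genes hold 1. Eomes, a T-box factor of NK cells that these relatives lack, was found in 60 members of each library. How far such cells contribute to the differences below was not tested. An alternative chosen after seeing the data limited the whole gate to barcodes with 0 UMIs of the 5 gate genes and of Tmem176a and Tmem176b. It left 95 and 77 members among 1274 and 1331 gated barcodes, and the main counts stayed within 1.5 times.

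Microglial Tmem119, P2ry12 and Trem2, vascular Cldn5 and the neutrophil gene Ly6g were at 0 UMIs in members. Summed markers of microglia were 86.5 CPM in wildtype and 134 CPM in 3XTg-AD members, against 92.5 and 117 CPM in other NK barcodes. Those of monocytes and macrophages, a list including Ly6c2 and Ccr2, were 595 and 457 CPM against 1273 and 1204 CPM. Dendritic cell markers were 94.1 and 59.7 CPM against 67.3 and 32.8 CPM. Neural and vascular markers were 119.6 and 87.8 CPM against 92.7 and 69.3 CPM. A few foreign barcodes sat among other NK barcodes instead, where 1 3XTg-AD barcode drew over 20% of its UMIs from neutrophil genes and 2 wildtype barcodes from erythroid genes.

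The 5 markers besides Cd27 were proposed with these data in view, and their levels are given as a description. Ctla2a, a cysteine protease inhibitor gene, stood at 463 CPM in members against 165 CPM in other wildtype NK barcodes and at 267 against 80.9 CPM in 3XTg-AD. Thy1, the surface glycoprotein CD90, stood at 323 against 124 CPM and at 429 against 131 CPM. Emb stood at 89.1 against 22.7 CPM and at 116 against 15.4 CPM. All 5 were higher in members of both libraries.

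Tcf7, whose product TCF-1 is needed early in NK development, stood at 73.8 against 24.4 CPM in wildtype and at 102 against 21.5 CPM in 3XTg-AD. Ccr2, the receptor for the chemokine CCL2, stood at 204 against 109.8 CPM and at 141 against 40.5 CPM. Thy1 regulatory sequence is part of the 3XTg-AD transgenes, and whether their transcripts were counted as Thy1 was not tested. The Thy1 ratio of 3XTg-AD over wildtype was 1.33 (1.03 to 1.71) in members and 1.05 (0.932 to 1.19) in other NK barcodes.

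At equal depth the markers still separated the classes only in part. Of members thinned to 1500 UMIs, 35.4% (26.6 to 45.0, 40 of 113) in wildtype held at least 2 of the 5, against 10.3% of other NK barcodes. In 3XTg-AD it was 26.4% against 5.78%. None of the 5 was found in 36.3% of wildtype and 35.6% of 3XTg-AD members, against 64.0% and 78.3% of other NK barcodes.

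**Figure D1:**
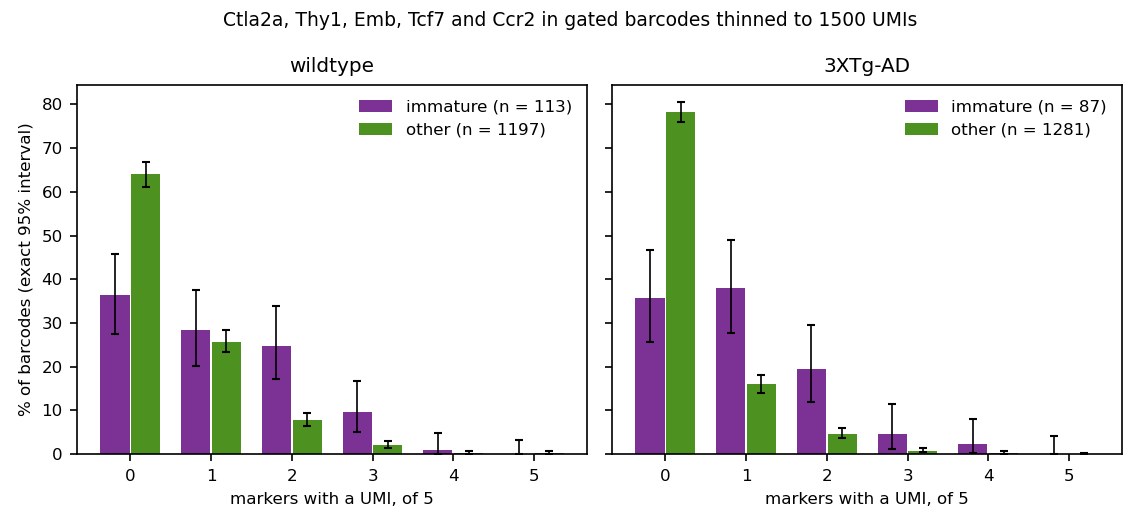
Share of gated barcodes (percent, y axis) by how many of Ctla2a, Thy1, Emb, Tcf7 and Ccr2 had a UMI after thinning to 1500 UMIs (x axis), for members and other NK barcodes of each library, with exact 95% intervals. Members with 2 or more markers were 35.4% in wildtype and 26.4% in 3XTg-AD, and 36.3% and 35.6% had none.

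The comparison of members with other NK barcodes was made within each library, so that genotype and preparation are shared by both sides. Of 4954 genes with at least 100 UMIs in each library, 48 (0.969%) were at least 1.5-fold higher in members in both libraries and 120 (2.42%) at least 1.5-fold lower. The members were chosen from the same transcriptomes, so these shares describe how broadly the classes differed and test nothing. Over these genes the median log2 ratio was -0.04 in wildtype and -0.06 in 3XTg-AD. Leaving ribosomal protein and mitochondrial UMIs out of the totals gave 78 genes higher, and asking for at least 2 Cd27 UMIs gave 155 higher and 529 lower from 23 and 12 members. How far the higher ribosomal share of members enters single ratios was not tested further. Genes named next include the 12 higher and 12 lower whose interval stayed farthest from a ratio of 1 in both libraries.

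**Figure D2:**
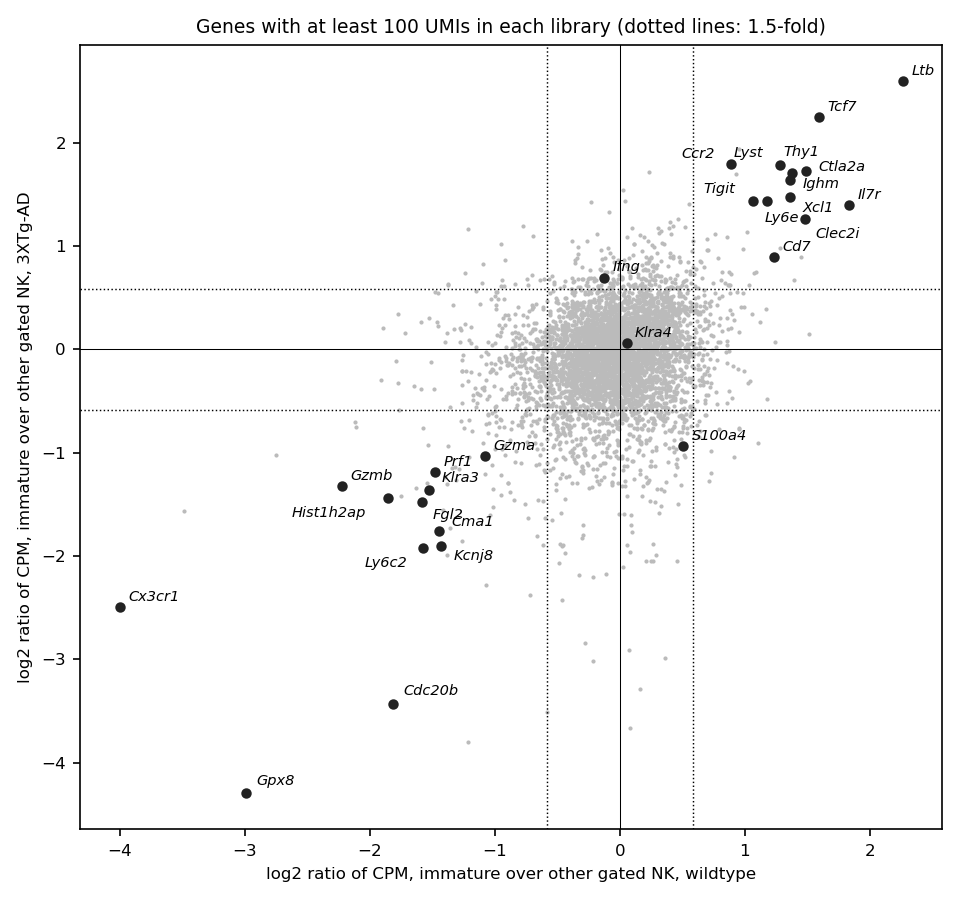
Log2 ratio of CPM, members over other NK barcodes, in wildtype (x axis) and in 3XTg-AD (y axis) for genes with at least 100 UMIs in each library, without genes of the gate and those at 0 UMIs in a class. Dotted lines mark 1.5-fold. Ltb, Tcf7 and Thy1 lie at upper right, Gpx8, Cdc20b and Cx3cr1 at lower left, Klra4 near the centre, and S100a4 on opposite sides of 0 in the libraries.

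Cytokine, receptor and progenitor genes led those higher in members. Ltb, the lymphotoxin beta chain that organises lymphoid tissue, stood at 361 CPM in members and 75.2 CPM in other wildtype NK barcodes, a ratio of 4.81 (3.91 to 5.88). In 3XTg-AD the levels were 358 and 59.4 CPM and the ratio 6.04 (4.74 to 7.63). Its 142 wildtype UMIs came from 48 members, with 15 in the highest, and its 102 3XTg-AD UMIs from 34, with 20 in the highest. Xcl1, the chemokine that attracts cross-presenting dendritic cells, stood at 427 against 166 CPM (2.57-fold, 2.16 to 3.05) in wildtype and at 590.3 against 213 CPM (2.77-fold, 2.33 to 3.27) in 3XTg-AD. After thinning, an Ltb UMI was found in 31.0% of wildtype and 32.2% of 3XTg-AD members, against 7.52% and 5.54% of other NK barcodes.

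Not every cytokine or chemokine shared this direction. Of 11 measured genes of that list, 2 (Ltb and Xcl1) were higher in both libraries and 0 lower. The background over all 8569 genes at the list minimum is 2.87% higher and 5.29% lower. Ccl5, an inflammatory chemokine of mature NK cells, stood at 16635 against 28886 CPM in wildtype and at 23758 against 31759 CPM in 3XTg-AD, ratios of 0.576 and 0.748. Ccl3 and Ccl4 were lower in wildtype members, with ratios of 0.303 and 0.438, while their 3XTg-AD ratios were 1.12 and 0.857. Ifng, the interferon gamma gene, had 16 UMIs in the members of each library and ratios of 0.917 (0.513 to 1.53) and 1.62 (0.900 to 2.72), whose intervals hold 1.

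Il7r, the receptor chain for the survival cytokine interleukin 7, stood at 153 against 42.7 CPM (3.58-fold, 2.62 to 4.82) in wildtype and at 59.7 against 22.7 CPM (2.63-fold, 1.47 to 4.44) in 3XTg-AD. Its UMIs lay in 23 wildtype and 8 3XTg-AD members, and the 3XTg-AD difference turned over when members were picked after thinning (log2 ratio -1.17). Cxcr3, a chemokine receptor for interferon-induced ligands, was 4.81-fold (2.84 to 7.95) and 6.07-fold (3.09 to 11.4) higher on 24 and 15 UMIs. Tigit, an inhibitory receptor for nectins, was 2.09 and 2.70-fold higher, and Cd160, a receptor for the TNF receptor family protein HVEM, 1.70 and 2.16-fold. They were the 2 higher of 7 measured checkpoint genes, with 1, Entpd1, lower, beside 2.87% higher and 5.29% lower among all 8569 genes. Cd7, an immunoglobulin-family receptor of lymphoid progenitors, stood at 1119.5 against 476 CPM in wildtype and at 1072 against 576 CPM in 3XTg-AD.

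Of the remaining genes in this group, Ly6e, a small anchored surface protein that is also induced by interferon, was 2.26-fold (2.05 to 2.49) and 2.69-fold (2.35 to 3.08) higher. Ighm, the immunoglobulin mu heavy chain gene, was 2.58 and 3.11-fold higher without other B cell markers. Clec2i, a lectin ligand of an Nkrp1 receptor, was 2.80 and 2.39-fold higher. Lyst, which regulates lysosome and granule size, was 2.43 and 3.44-fold higher, but its 3XTg-AD ratio also turned over when members were picked after thinning (log2 ratio -0.27).

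The fixed list of immature and progenitor NK genes, which holds the 5 markers, had 23 measured members, of which 11 were at least 1.5-fold higher in both libraries and 0 lower. Its median log2 ratio was 0.89 in wildtype and 1.08 in 3XTg-AD, beside -0.03 and -0.06 for all 8569 genes. Of all these genes, 2.87% were higher and 5.29% lower in both libraries. Besides those named above, no listed gene passed in both libraries. Lef1, a relative of Tcf7, had ratios of 1.10 (0.639 to 1.80) and 1.36 (0.775 to 2.24).

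Granule genes and genes of late maturation were among those lower in members. Gzmb, which encodes granzyme B, stood at 687 CPM in members against 3208 CPM in other wildtype NK barcodes, a ratio of 0.214 (0.189 to 0.242). In 3XTg-AD it stood at 657 against 1643 CPM, a ratio of 0.400 (0.344 to 0.462). Gzma, the granzyme A gene, stood at 9981 against 21128 CPM and at 10145 against 20761 CPM, with ratios of 0.472 (0.457 to 0.488) and 0.489 (0.471 to 0.507). Prf1, the pore-forming perforin, stood at 506 against 1407 CPM and at 576 against 1313 CPM.

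Of 19 measured cytotoxic effector genes, 4 were at least 1.5-fold lower in both libraries (Gzma, Gzmb, Prf1 and Serpinb9b, a granule protease inhibitor) and 0 higher, with median log2 ratios of -0.42 and -0.30. The shares over all 8569 genes at the list minimum were 5.29% lower and 2.87% higher. Rab27a, Stx11 and Unc13d, which dock and release the granules, had ratios of 1.07, 0.775 and 0.806 in wildtype and 2.25, 1.31 and 1.12 in 3XTg-AD. Of these 6 intervals, only that of Rab27a in 3XTg-AD (1.31 to 3.66, on 19 member UMIs) left out 1.

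Trafficking receptors of late cells were lower in members. Cx3cr1, the fractalkine receptor, had 3 UMIs in wildtype members against 501 in other NK barcodes, a ratio of 0.0624 (0.0128 to 0.184), and 4 against 328 in 3XTg-AD, a ratio of 0.178 (0.0481 to 0.459). Microglia express Cx3cr1 strongly, and it was found in 50% and 86.7% of the C1q barcodes, against 2.56% and 2.22% of members. S1pr5, a sphingosine phosphate receptor for exit from bone marrow and lymph node, stood at 209 against 394 CPM and at 242 against 460.3 CPM, with ratios of 0.529 and 0.527. S1pr1, a related receptor, went the other way at 3.37-fold (1.96 to 5.58) and 1.60-fold (0.775 to 2.99). Of 12 measured chemokine receptor and trafficking genes, 4 (Ccr2, Cxcr3, Emb and S1pr1) were higher and 2 (Cx3cr1 and S1pr5) lower. Among all 8569 genes at the list minimum, 2.87% were higher and 5.29% lower.

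The list of terminal NK maturation genes had 30 measured members, of which 15 were at least 1.5-fold lower in both libraries and 1, S1pr1, higher. Among all 8569 genes at the list minimum, 5.29% were lower and 2.87% higher. The median log2 ratio of the terminal list was -0.66 in wildtype and -0.69 in 3XTg-AD. Cma1, a gene of the mast cell chymase family, stood at 183 against 499 CPM and at 169 against 569 CPM. Ly6c2, a surface antigen of mature NK cells and monocytes, stood at 389 against 1161 CPM and at 299 against 1131 CPM. Kcnj8, a potassium channel gene, had ratios of 0.371 (0.231 to 0.566) and 0.268 (0.142 to 0.461), and Fgl2, a fibrinogen-like immune regulator, of 0.334 (0.213 to 0.501) and 0.359 (0.231 to 0.532). Itgam, the CD11b integrin chain used with CD27 to stage mouse NK cells, had 14 and 4 member UMIs and ratios of 0.689 (0.370 to 1.18) and 0.318 (0.0858 to 0.829).

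**Figure D3:**
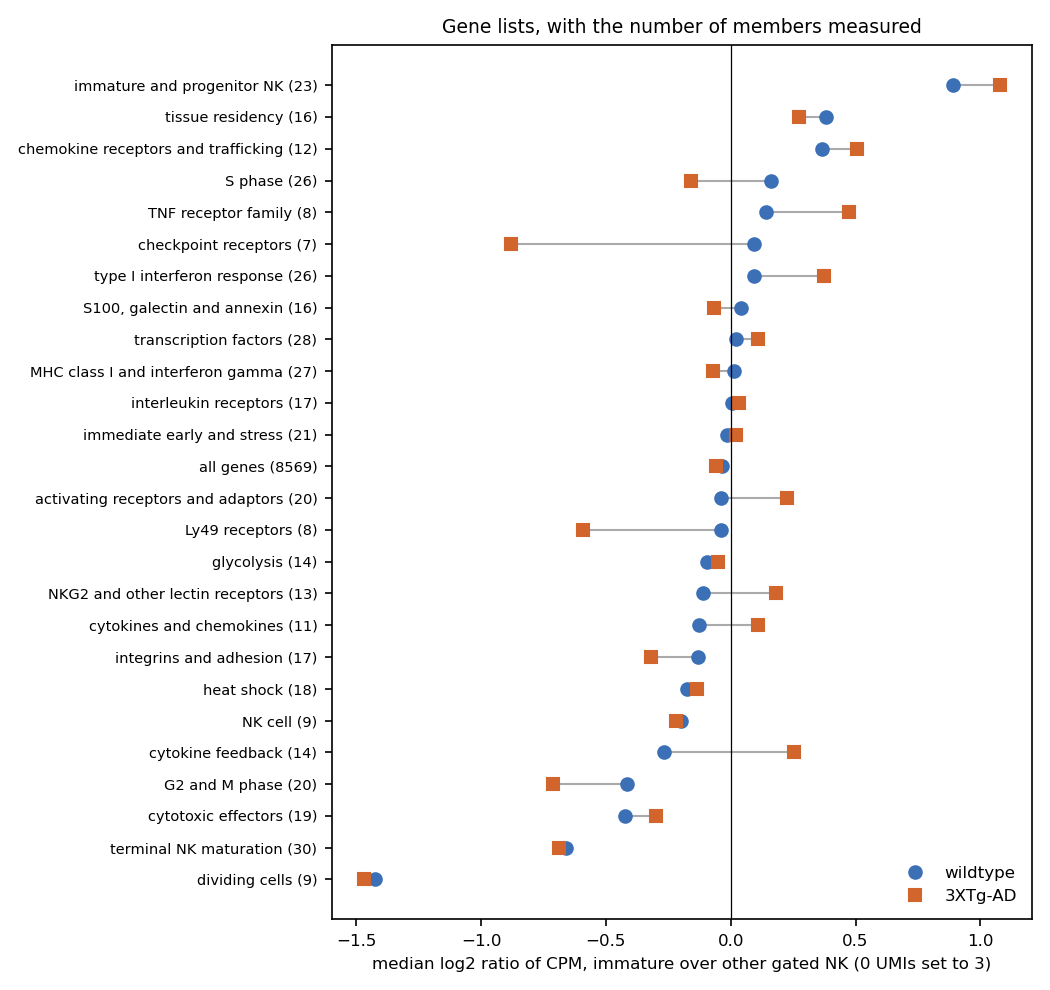
Median log2 ratio of CPM, members over other NK barcodes, for each gene list with at least 7 measured genes (number in brackets) and for all genes, with genes at 0 UMIs in a class set to 3 UMIs. The list of immature and progenitor genes is highest at 0.89 and 1.08, and terminal maturation genes lie at -0.66 and -0.69.

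Gpx8, Cdc20b and Gzma lie within 65.9 kb of chromosome 13 (113035111 to 113100981 on GRCm38), and all 3 were lower in members of both libraries. Gpx8, a peroxidase gene of the endoplasmic reticulum, had 3 UMIs in wildtype members and 249 in other NK barcodes, a ratio of 0.126 (0.0257 to 0.371), and 1 against 286 in 3XTg-AD, a ratio of 0.0509 (0.00128 to 0.286). Cdc20b, a relative of a mitotic regulator, had 7 against 257 UMIs and 2 against 313, with ratios of 0.284 (0.113 to 0.594) and 0.0930 (0.0112 to 0.339). Gpx8 lies inside Cdc20b on the opposite strand, and the labels do not say whether counting used strand, so reads of the pair may not be told apart. Gzmk, the next granzyme gene on that chromosome, did not follow, with 3 against 43 UMIs in wildtype and 11 against 32 in 3XTg-AD. On chromosome 14, Cma1 and Gzmb flank a cluster of granzyme and mast cell protease genes, and of the 14 genes between them 13 had 0 UMIs in gated barcodes, Gzmc being the other.

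Single transcription factors differed in either direction. Of 28 measured, Tcf7 (a marker proposed with these data in view) and Foxo1 were higher in both libraries, and Irf8 and Zeb2 lower. For comparison, 2.87% of all 8569 genes at the list minimum were higher and 5.29% lower. Medians over the 28 factors, in log2, were 0.02 (wildtype) and 0.11 (3XTg-AD), beside -0.03 and -0.06 for all genes. No difference of the family as a whole is read from these counts. Foxo1, which favours Il7r expression in lymphocytes, was 2.12-fold (1.41 to 3.1) and 1.68-fold (1.0 to 2.68) higher. Zeb2, a repressor needed for late NK maturation, stood at 102 against 217 CPM and at 141 against 263 CPM, ratios of 0.469 and 0.535. Irf8, an interferon regulatory factor active in NK maturation, had ratios of 0.422 (0.351 to 0.504) and 0.588 (0.489 to 0.702). Among the T-box pair, Eomes had ratios of 1.32 (1.08 to 1.62) and 1.91 (1.56 to 2.30) and Tbx21 of 0.681 (0.535 to 0.855) and 0.837 (0.669 to 1.04), so neither reached 1.5-fold in both.

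Ly49 receptors, encoded by the Klra genes and binding MHC class I, did not all differ alike. Their median log2 ratio was -0.04 in wildtype and -0.59 in 3XTg-AD, beside -0.03 and -0.06 for all genes. Of 8 measured, 3 (Klra3, Klra5 and Klra9) were at least 1.5-fold lower in both libraries. The shares over all 8569 genes at the list minimum were 5.29% lower and 2.87% higher. Klra4, the activating receptor Ly49D, had the ratio 1.04 in each library (0.892 to 1.20 and 0.889 to 1.21), and Klra8, the activating Ly49H, 0.984 (0.826 to 1.16) and 0.782 (0.664 to 0.916). The Klra genes are near-identical copies, so the split of UMIs between them is uncertain. Of 13 NKG2 and other lectin receptor genes, 1 was higher (Clec2i), and Klrk1, the NKG2D receptor, had ratios of 1.04 and 1.17.

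Counts for the other groups in both libraries stand beside 2.87% higher and 5.29% lower among all 8569 genes at the list minimum. Heat shock genes had 0 of 18, glycolysis genes 0 of 14 and MHC class I and interferon gamma genes 0 of 27 past 1.5-fold in either direction. Of 26 interferon genes 1, Ly6e, was higher, of 20 activating receptors and adaptors 2 (Cd226 and Cd7), of 8 TNF receptor family genes 1 (Tnfrsf9), of 21 immediate early and stress genes 1 (Gadd45b) and of 14 cytokine feedback genes 1 (Socs2). Integrins and adhesion genes had Cd226 and Cd44 higher and Itgb2 lower of 17. Interleukin receptors had Il4ra and Il7r higher and Il12rb1 and Il12rb2 lower of 17. Tissue residency genes had Cd160, Il7r and Ltb higher and Dusp6 and Entpd1 lower of 16, with median log2 ratios of 0.38 and 0.27. S100a6 and Lgals1 were lower of 16 S100, galectin and annexin genes. Lgals1, the galectin-1 gene, stood at 2264 against 3608 CPM and at 2038 against 3293 CPM.

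Genes that mark dividing cells were rarely found in members, while S phase genes as a list summed to 921 against 870 CPM in wildtype and 889 against 987 CPM in 3XTg-AD. Summed over the 10 genes of dividing cells, the level was 30.5 CPM in members against 124 CPM in wildtype and 24.6 against 169 CPM in 3XTg-AD. These levels rest on few barcodes, since 3 of 117 wildtype and 1 of 90 3XTg-AD members held at least 2 such UMIs, against 12 of 1328 and 16 of 1367 other NK barcodes, and no order is read from these shares. Mki67, the proliferation marker Ki-67, had 2 and 1 member UMIs. Of 20 measured genes of the G2 and M phases, 10 were lower and 1, Kif20b, higher in both libraries. The shares over all 8569 genes at the list minimum were 5.29% lower and 2.87% higher. Of the 20, however, 3 in wildtype and 6 in 3XTg-AD were at 0 UMIs in members. With those set to the floor of 3 counts the median log2 ratio was -0.41 and -0.71. S phase genes had 2 of 26 lower (Mcm3 and Tyms). Hist1h2ap, a replication-dependent histone gene with near-identical copies, had ratios of 0.276 (0.165 to 0.434) and 0.368 (0.277 to 0.480).

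Splitting gated barcodes by both genes placed members at one end. There were 26 and 37 barcodes with both transcripts, 635 and 664 with neither, and 667 and 666 with Klrg1 alone. Summed over the 30 terminal maturation genes, the level in wildtype was 37361 CPM in members, 55085 CPM with neither transcript, 66164 CPM with both and 78456 CPM with Klrg1 alone. In 3XTg-AD the same order of sums held, at 44096, 57949, 63412 and 78101 CPM. By the median log2 ratio to barcodes with Klrg1 alone, members were lowest in both libraries, at -0.85 each. The middle classes stood at -0.45 with neither and -0.25 with both in wildtype, but at -0.26 and -0.31 in 3XTg-AD. Over 23 immature and progenitor genes, members were highest at 6259 and 6476 CPM and barcodes with Klrg1 alone lowest at 3028 and 3440.0 CPM. Barcodes with neither and with both stood at 4830 and 4923 CPM in wildtype and at 4589 and 4117 CPM in 3XTg-AD.

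Barcodes with neither transcript were also the shallowest, with medians of 2544 and 2494 UMIs, so this class can hold cells whose Cd27 or Klrg1 went unseen. Single genes also had members at one end where counts sufficed. Ltb ran from 361 CPM in members through 155 CPM with neither to 17.0 CPM with Klrg1 alone in wildtype, and from 358 through 107 to 22.7 CPM in 3XTg-AD. Gzmb ran from 687 through 2804 to 3576 CPM and from 657 through 1247 to 1967 CPM. Xcl1 was an exception in wildtype, where the 26 barcodes with both transcripts stood highest at 754 CPM, against 307 CPM in the 37 of 3XTg-AD.

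**Figure D4:**
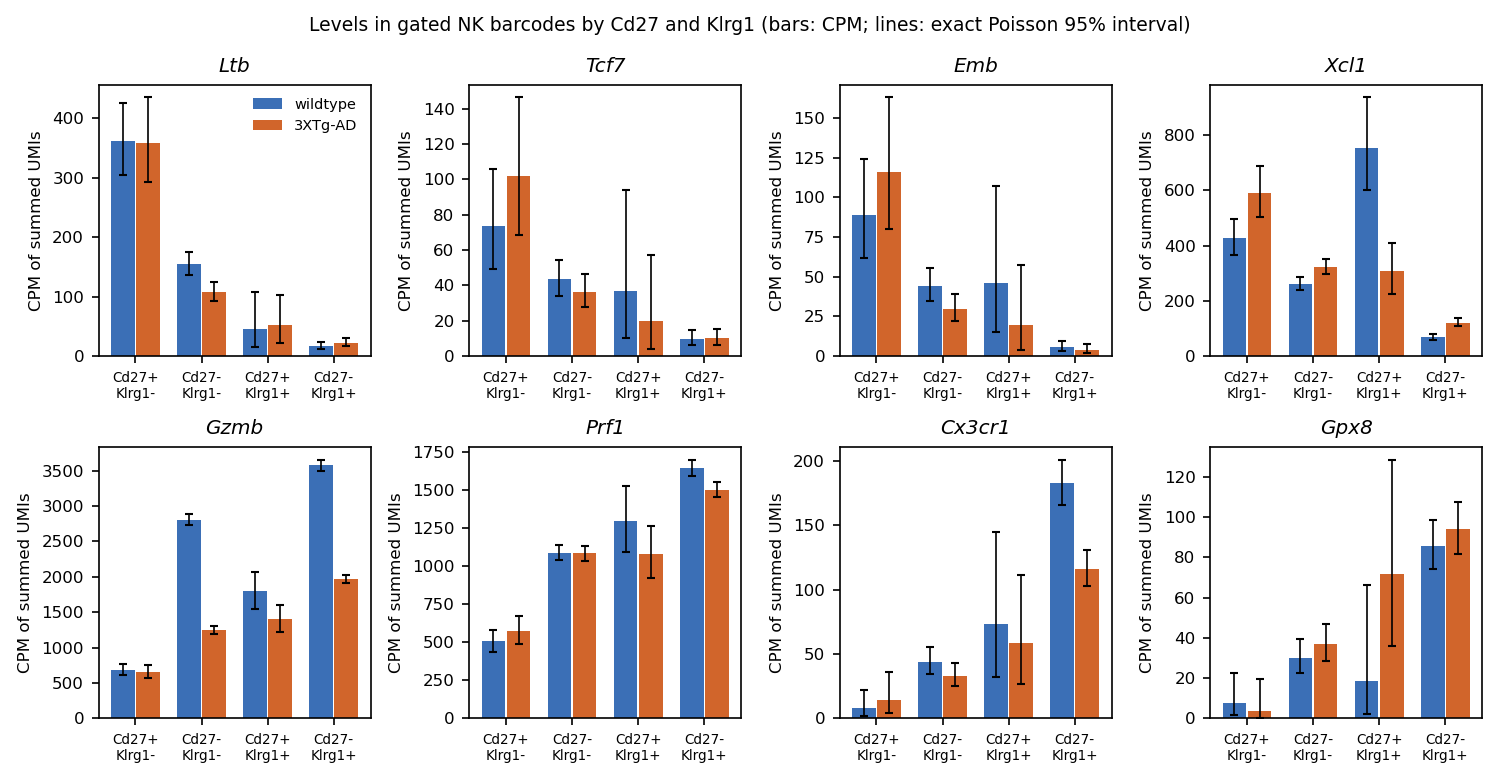
CPM of summed UMIs (y axis) for 8 genes in gated barcodes divided by detection of Cd27 and Klrg1 (x axis), members first, in wildtype and 3XTg-AD, with exact Poisson 95% intervals. Ltb falls from 361 and 358 CPM in members to 17.0 and 22.7 CPM with Klrg1 alone, and Gzmb is lowest in members at 687 and 657 CPM.

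Among members, barcodes with at least 2 Cd27 UMIs (23 and 12) could be set beside those with 1. Gzma stood at 8597 against 10348 CPM in wildtype and at 7120.1 against 10744 CPM in 3XTg-AD, with intervals apart in both. Emb stood at 109.3 against 83.7 CPM and at 234 against 92.6 CPM, Thy1 at 364 against 312 CPM and at 659 against 383 CPM. The intervals of Emb and Thy1 overlap in both libraries. Cma1 differed between the libraries, with 255 against 164 CPM in wildtype and 21.3 against 198 CPM, from 1 UMI, in 3XTg-AD. Median depths of 3126 against 2985 and 3065 against 2846.5 UMIs were higher with more Cd27.

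Members of the libraries were also set against each other, beside the same ratio in other NK barcodes. Of 2044 genes with at least 50 UMIs over the members of both libraries, 159 (7.78%) were at least 1.5-fold higher in 3XTg-AD and 90 (4.40%) at least 1.5-fold lower. In other NK barcodes, which hold over 10 times as many UMIs, 38 (1.86%) and 27 (1.32%) of the same genes passed. With a minimum of 400 UMIs, chosen after seeing the data, fewer genes enter by construction and the members' counts were 4 and 2.

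Most measured heat shock genes were higher in 3XTg-AD members. Hspa8, a constitutive HSP70 chaperone, stood at 2920.1 against 1320.5 CPM (2.21-fold, 1.98 to 2.47), beside 2.01-fold in other NK barcodes. Dnaja1, an HSP40 co-chaperone, was 1.90-fold (1.51 to 2.38) higher, and Jun, an AP-1 factor, 3.11-fold (1.80 to 5.56), beside 2.09 and 2.43-fold. Of 16 measured heat shock genes, 12 were at least 1.5-fold higher and 0 lower, beside a background of 12.8% and 10.6% over the 4443 genes at the list minimum. In other NK barcodes 2.27% and 1.87% of those genes passed. Their median log2 ratio of 0.81 in members was close to the 0.83 in other NK barcodes, where the median of all genes was 0.05. Immediate early and stress genes had 7 of 17 higher and 1, Nr4a2, lower.

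Among chemokine genes, Ccl3, Ccl4 and Ccl5 had larger library ratios in members than in the rest. Ccl3, a macrophage inflammatory protein, stood at 302 CPM in 3XTg-AD members against 63.6 CPM in wildtype members (4.75-fold, 3.01 to 7.74). In other NK barcodes it stood at 270 against 210 CPM (1.29-fold), and the ratio of these ratios was 3.69 (2.31 to 6.06). Within libraries, the Ccl3 ratio of members over other NK barcodes was 0.303 (0.195 to 0.451) in wildtype and 1.12 (0.888 to 1.39) in 3XTg-AD. Its 86 3XTg-AD UMIs came from 32 members with 22 in the highest. Ccl4, its relative, was 2.77-fold higher beside 1.42-fold, but a single member held 76 of the 140 wildtype UMIs and another 101 of the 281 in 3XTg-AD, and with Cd27 at 2 or more UMIs the direction turned over (log2 ratio -1.21). Ccl5 was 1.43-fold higher in members (1.38 to 1.48) beside 1.10-fold. A ratio of ratios covers counting error only, and 1 library per genotype gives it no replicate.

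For some other genes the library ratio also differed between the classes. Gzmb stood at 657 against 687 CPM in members, a ratio of 0.957 (0.790 to 1.16), but at 1643 against 3208 CPM in other NK barcodes, a ratio of 0.512 (0.497 to 0.528), and the ratio of ratios was 1.87 (1.54 to 2.26). Ccr2 had 0.691 in members against 0.369 in the rest, with a ratio of ratios of 1.87 (1.20 to 2.89). Eomes was 1.53-fold (1.17 to 2.0) higher in 3XTg-AD members and 1.06-fold (0.969 to 1.17) in the rest.

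Several genes lower in 3XTg-AD members were also lower in other 3XTg-AD NK barcodes. Wls, the carrier for secreted Wnt proteins, stood at 52.7 against 427 CPM, a ratio of 0.123 (0.0675 to 0.209), beside 0.147 in other NK barcodes. Klra1, the Ly49A receptor, had 0.237 (0.133 to 0.399) beside 0.358, and Klrc3, an NKG2 chain, 0.259 (0.112 to 0.534) beside 0.195. Gm42031, a predicted gene, had 4 against 83 UMIs, a ratio of 0.0666 (0.0177 to 0.177), beside 0.269. Ctla2a and Il7r, which mark members, were at 0.577 (0.435 to 0.758) and 0.391 (0.214 to 0.680), beside 0.491 and 0.531.

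**Figure D5:**
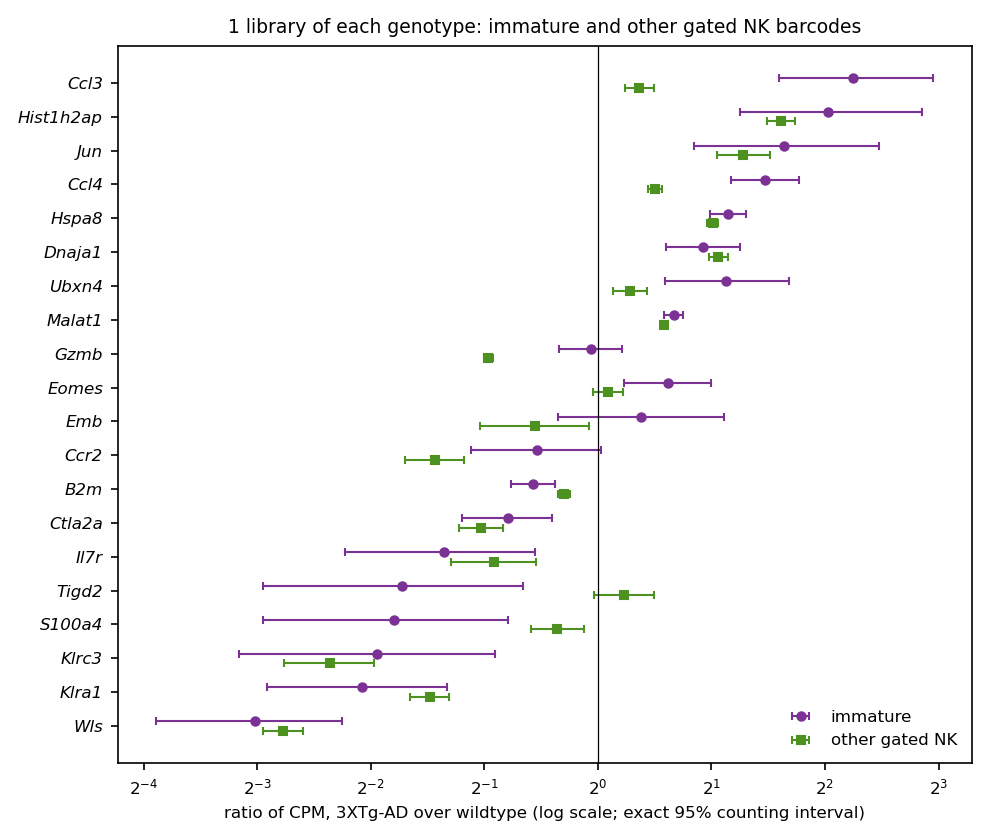
Ratio of CPM, 3XTg-AD over wildtype (log axis), in members and in other NK barcodes for 20 genes, with exact 95% counting intervals. Hspa8, Malat1 and Wls have like ratios in both classes, while Ccl3 is 4.75 against 1.29 and Gzmb 0.957 against 0.512.

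Of 18 measured interferon genes, 7 were at least 1.5-fold lower in 3XTg-AD members and 1, Trim30a, higher. Over all 4443 genes at the list minimum, 10.6% were lower and 12.8% higher in members. In other NK barcodes 1.87% and 2.27% of those genes passed. The median log2 ratio of the interferon list was -0.41 in members beside -0.55 in other NK barcodes. Barcodes with 10 or more UMIs of the list after thinning were 11.5% (6.27 to 18.9, 13 of 113) of wildtype members. In 3XTg-AD members they were 1.15% (0.0291 to 6.24), a single barcode of 87. Among other NK barcodes the shares were 3.09% (37 of 1197) in wildtype and 0.468% (6 of 1281) in 3XTg-AD. The list holds Ly6e, itself higher in members. Before thinning, Ly6e gave 486 of the 1115 list UMIs outside the gate genes in wildtype members and 256 of 582 in 3XTg-AD members. How far Ly6e alone carries these shares was not tested. A few barcodes carried the most uneven genes. Ifi27l2a had 45 UMIs in 5 wildtype members and 0 in 3XTg-AD, and Ly6a 15 UMIs in 4 wildtype members and 0 in 3XTg-AD. The exact interval of the Ifi27l2a ratio in members, 3XTg-AD over wildtype, reached up to 0.118.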

How the data were processed

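NK cells had been sorted from brain by flow cytometry and read with a droplet kit for transcript 5′ ends, per the labels' protocols. The authors deposited counts, the UMIs of 31053 genes per barcode with no normalization, per the file headers and values. The submitters' processing notes list Cell Ranger 3.1.0, STAR and mm10, and the deposited matrix headers carry version 3.0.2. Which annotation release the authors counted on is not stated.

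The gate, the members, the markers, all 35 gene lists and the 184 named genes were chosen with earlier results of these data known. Named genes were the markers, the 12 higher and 12 lower in each comparison with intervals farthest from 1 (without gate, ribosomal, mitochondrial and receptor segment genes), up to 4 of each list by absolute log2 ratio, and a preset group of NK genes. Features singled out otherwise (the neighbours of Gzma and Gzmb among them) were chosen after their values were seen.

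UMIs were summed over a class within a library and scaled to its total (CPM). Ratios carry exact conditional binomial intervals and shares exact Clopper-Pearson intervals at the 95% level. With 1 library per genotype no test was made, and a gene counts as called past 1.5-fold. Genes needed 100 UMIs over both classes in each library, or 50 over both libraries between libraries, and list genes 20. Genes of the gate were left out of counts. Doublets were called with Scrublet through scanpy 1.11.5 only as an alternative and marked 13 wildtype and 22 3XTg-AD barcodes, of which 0 and 2 were members. Gene positions come from GENCODE M21 and promoter windows from RefSeq, both on GRCm38. The calculations used Python 3.11.15, numpy 2.4.6 and scipy 1.17.1 and were tested on simulated data. Reads per library, animals and preparations could not be assessed from the counts, and the 2 libraries held 5559995 and 5468455 UMIs. Values of 2 listed genes are not reported here.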

Additional observations from a re-analysis of the deposited data

Results flagged for a closer look

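A few results differed in direction between groups that share a contrast, or appeared outside the compared barcodes. None of these differences was tested, since there is 1 library per genotype, and no explanation is offered.

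S100a4, a calcium-binding protein gene, had a log2 ratio of members over other NK barcodes of 0.51 in wildtype and -0.93 in 3XTg-AD. Its UMIs lay in 21 wildtype and 6 3XTg-AD members, and in members the ratio of 3XTg-AD over wildtype was 0.288 (0.130 to 0.576) beside 0.781 in other NK barcodes. Tigd2, a transposase-derived gene, had log2 ratios of 0.91 and -1.04, from 41 UMIs in 33 wildtype members and 9 UMIs in 9 3XTg-AD members. Rrm2, a subunit of ribonucleotide reductase used in DNA synthesis, was at 0 UMIs in 3XTg-AD members and 7 in wildtype members. Those 7 UMIs lay in 3 members, with 5 in the highest. The upper bound of its log2 ratio of 3XTg-AD over wildtype was -0.062 in members, while in other NK barcodes the log2 ratio was 0.68.

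Barcodes with Cd27 and without Klrg1 also occurred outside the gate. They were 13.8% of 94 wildtype and 14.2% of 148 3XTg-AD barcodes that Cd3 or C1q UMIs kept out, and 16.3% of 86 and 16.4% of 67 barcodes over the limit of 2 UMIs for the 5 innate lymphoid genes. Inside the gate the share was 8.10% and 6.18%. All of these shares are as counted, without thinning, and their differences were not tested.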

How the results depend on the processing

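The medians of the terminal maturation list stayed below 0 under all 13 alternatives (-0.85 to -0.54 in wildtype, -1.53 to -0.44 in 3XTg-AD) and those of the immature and progenitor list above 0 (0.77 to 1.21 and 0.82 to 1.47). Counts and shares depended on the Cd27 threshold, on depth and on the gene minimum. Thinning to 1500 UMIs before choosing members gave shares of 4.27% and 3.80% and 37 genes higher and 24 lower between libraries. With at least 2 Cd27 UMIs, shares were 1.59% and 0.824%, 155 genes were higher and 529 lower in members, the terminal median in 3XTg-AD was -1.53, and 14 and 30 genes differed between libraries, from 23 and 12 barcodes. Without interferon-high barcodes the wildtype share was 6.61% and 57 genes were lower in 3XTg-AD. A minimum of 20 UMIs gave 246 and 453 genes between classes and 569 and 469 between libraries, and one of 400, chosen after seeing the data, gave 8, 29, 4 and 2. Totals without ribosomal and mitochondrial UMIs gave 78 genes higher in members. The cause of these shifts was not tested, except that fewer barcodes or genes entered by construction. Of 676 values for 52 ratios between classes (a gene in a library), 567 stayed close, 107 moved and 2 changed sign, which were Il7r (-1.17) and Lyst (-0.27) in 3XTg-AD after thinning. Of 260 values for 24 genes between libraries, 235 stayed close, 24 moved and 1, Ccl4 with at least 2 Cd27 UMIs (-1.21), changed sign. No paired analysis was possible because each genotype has 1 library. Depth limits genes with few member UMIs, such as Cx3cr1 and Gpx8.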
